A study of Mus musculus with 20 samples.

Results

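The 9 genes described here encode the TREM2-TYROBP signalling chain of microglia, the resident macrophages of the brain. They were chosen by gene symbol, Trem2, Tyrobp, Hcst, Syk, Plcg2, Inpp5d, Vav1, Btk and Blnk, and all 9 were found among the 21315 symbols measured. RNA was sequenced in 20 libraries of CD45mid CD11b+ cells, the gate used for microglia, sorted after papain digestion of the brain from C57BL/6 mice of both sexes aged 9 months. Of these, 14 libraries held microglia not selected further, 3 labelled WT, 3 labelled APP-KI, 3 labelled C3aR-KO and 5 labelled APP-KI; C3aR-KO, whose mice were littermates of 1 cross. APP-KI mice carry the App NL-G-F knock-in, an App gene at its own locus with a humanized Aβ sequence and the Swedish, Arctic and Iberian mutations, and develop Aβ plaques. C3aR-KO mice lack C3ar1, the receptor of the complement fragment C3a, from the germline and thus in every cell. The other 6 libraries, 3 labelled WT C3aR+ and 3 labelled APP-KI C3aR+, came from a second cross, with a Td-tomato reporter line that carries C3ar1 fl/fl alleles, and were sorted in addition on Td-tomato. All 6 therefore carry the reporter, in a number of copies that is not given in the sources used here, and no sorted library came from a mouse without C3aR. Nothing in the labels says whether a library held cells of 1 mouse or of several, so the p-values measure the spread between libraries.

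TREM2 is a surface receptor for lipids, lipoproteins and Aβ that has almost no signalling part of its own. It pairs in the membrane with TYROBP, also named DAP12, a small adaptor whose cytoplasmic tail holds an activation motif that SYK, a tyrosine kinase, binds once the motif is phosphorylated. HCST, or DAP10, is a second adaptor of the same receptor family that recruits phosphoinositide 3-kinase. SYK acts on BLNK, a scaffold protein, and through it on BTK, a Tec family kinase, on PLCG2, the phospholipase that releases calcium, and on VAV1, an exchange factor for small GTPases, whereas INPP5D, or SHIP1, removes the lipid signal and restrains the chain. TREM2, PLCG2 and INPP5D are genes of risk for late-onset Alzheimer's disease, and microglia around plaques are known to raise Trem2 and Tyrobp as they leave the homeostatic state.

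In the GENCODE M21 annotation of GRCm38, the assembly also named mm10, Trem2 lies on chromosome 17 from 48346401 to 48354147 on the plus strand. On chromosome 7, Tyrobp (30413760 to 30417585, plus strand) and Hcst (30417712 to 30419854, minus strand) face each other end to end with 126 bases between them. Syk lies on chromosome 13 (52583173 to 52648792, plus strand), Plcg2 on chromosome 8 (117498291 to 117635142, plus strand) and Inpp5d on chromosome 1 (87620312 to 87720507, plus strand). Vav1 shares chromosome 17 with Trem2 (57279100 to 57328031, plus strand), Btk is X-linked (134542336 to 134583570, minus strand) and Blnk lies on chromosome 19 (40928927 to 40994535, minus strand). No annotated gene overlapped an exon of a member, so their reads can be assigned to them also without strand.

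The promoters of Trem2, Inpp5d and Vav1 are shown, and matches are counted over all members whose promoters were matched. Across the libraries Trem2 ran against Inpp5d and Vav1 (Pearson's r of log2(scaled value + 1) -0.80 and -0.88). RefSeq promoters (GRCm38.p6, from 250 bases before to 50 after a start) were matched for 8 of the 9 genes, 9 promoters in all because Syk has 2 starts, and Tyrobp had none in the table. The letters AGGAAGT, searched on both strands, follow the purine-rich core bound by PU.1, the ETS-family factor that macrophages and microglia require. They stand in capitals below.

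Trem2, chr17:48346151-48346450, plus strand: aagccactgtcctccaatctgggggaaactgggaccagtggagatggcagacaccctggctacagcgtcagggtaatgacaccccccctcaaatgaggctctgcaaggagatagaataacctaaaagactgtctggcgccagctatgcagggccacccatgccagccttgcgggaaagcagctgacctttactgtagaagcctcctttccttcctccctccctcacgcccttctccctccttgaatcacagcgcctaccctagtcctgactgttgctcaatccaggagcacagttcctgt

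Inpp5d, chr1:87620062-87620361, plus strand: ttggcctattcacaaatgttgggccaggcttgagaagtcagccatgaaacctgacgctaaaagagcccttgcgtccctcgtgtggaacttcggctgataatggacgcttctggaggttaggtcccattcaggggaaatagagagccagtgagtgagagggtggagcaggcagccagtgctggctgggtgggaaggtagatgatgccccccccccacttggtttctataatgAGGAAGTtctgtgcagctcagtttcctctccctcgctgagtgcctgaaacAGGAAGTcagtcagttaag

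Vav1, chr17:57278850-57279149, plus strand: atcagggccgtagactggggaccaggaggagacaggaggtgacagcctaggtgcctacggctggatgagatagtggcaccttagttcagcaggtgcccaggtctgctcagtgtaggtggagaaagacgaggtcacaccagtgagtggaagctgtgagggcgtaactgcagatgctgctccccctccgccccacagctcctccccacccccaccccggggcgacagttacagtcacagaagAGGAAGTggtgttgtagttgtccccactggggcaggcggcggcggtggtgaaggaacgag

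Inpp5d holds the 7 letters 2 times and Vav1 1 time, both close to the start, and Trem2 does not hold them in this window. In all, 4 of the 8 genes had a match (Inpp5d, Hcst, Vav1 and Blnk), where 9.35% of 32817 promoters did. Syk, Plcg2 and Btk, which moved with Inpp5d and Vav1 across the libraries, had no match. The longer run GAGGAAGT, which contains the first, was present in 2 of the 8, Inpp5d and Vav1, and in 3.20% of all promoters. A match is a description of these letters and not a binding site, and the promoters with a match belong to genes that were lower and to genes that were higher in APP-KI.

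The depth came to between 13939559 and 30388941 reads assigned to genes in the C3aR+ libraries and between 42239056 and 76608464 in the others. Levels are given as scaled values: the authors divided each gene's reads by the upper quartile of its library, and all values were multiplied by 35.1, which makes a typical value close to a CPM. They are not divided by gene length. Log2 fold changes come from limma on log2(scaled value + 1), with adjusted p-values (Benjamini-Hochberg) over all genes of a fit whose mean scaled value reached 1. All 9 members passed that filter in every fit, Hcst with the lowest values. Of the 14 libraries not selected on C3aR, 4 had more than 35% of the genes at 0 (APP-KI replicate 4, C3aR-KO replicates 1 and 2, and APP-KI; C3aR-KO replicate 1, 37.8 to 41.9%), all of library series 24, and APP-KI replicate 5 had 0.493% at 0, where the remaining 15 libraries had 18.2 to 30.2%. For the comparisons among the 14 libraries, Trem2, Tyrobp and Syk are also given without the 4 libraries with many genes at 0. Leaving those out keeps 1 C3aR-KO library, replicate 3, whose spread was then taken to be that of the other groups. The check on the deleted gene placed C3ar1 at 39.8 to 67.9 in the C3aR-KO libraries and 61.7 to 80.1 in APP-KI; C3aR-KO, below the 275 to 339 of WT and the 165 to 387 of APP-KI. The libraries labelled WT C3aR+ held C3ar1 at only 37.5 to 81.0, about the level of the libraries without the gene (39.8 to 80.1), and those labelled APP-KI C3aR+ at 200.4 to 382, so the C3ar1 level of the first goes against their label. Microglial markers summed to between 9928 and 31181 in each library, so the defining genes of microglia were present throughout. Sums were 0.0451 to 30.1 for neuronal markers and 2.64 to 63.2 for B cell markers. They were higher for border macrophages (178 to 1180) and for monocytes and neutrophils (30.9 to 769, the highest in WT replicate 6). In a bulk library, fewer cells of a type and less RNA per cell cannot be told apart.

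The first comparison asked how the chain differed between APP-KI and WT microglia sorted on the reporter. C3ar1 itself was higher in APP-KI C3aR+ (log2 fold change 2.14 ± 0.30, limma adjusted p = 0.001), so the groups were not matched for its level. Trem2 and its 2 adaptors rose, Tyrobp by 3.93 times and Trem2 by 2.31 times in the mean scaled value, while Syk and Vav1 fell. The other 4 members did not pass the test. Trem2, the receptor, lay at 657, 753 and 687 in the WT C3aR+ libraries and at 1647, 1405 and 1785 in APP-KI C3aR+. Every APP-KI library was thus higher than every WT library, with no overlap, and the log2 fold change was 1.20 ± 0.14 (SE, n = 3 and 3, limma adjusted p = 0.00035). For Tyrobp, the adaptor, the WT C3aR+ libraries gave 264, 296 and 269 and the APP-KI C3aR+ libraries 1063, 860 and 1333. The groups lay far apart, and this was the largest change in the chain (1.95 ± 0.16, limma adjusted p = 6.5e-05).

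Hcst, the second adaptor, was a low gene, with 45 to 60 reads in the WT C3aR+ libraries and 71 to 189 in APP-KI C3aR+. Its scaled values of 1.67, 2.92 and 1.60 rose to 9.74, 6.88 and 5.57, again without overlap (log2 fold change 1.45 ± 0.43, limma adjusted p = 0.039). This call was lost when any 1 of WT C3aR+ replicates 1, 2 and 3 or APP-KI C3aR+ replicates 1 and 2 was left out (limma adjusted p between 0.062 and 0.108). Among the losses in other settings were those with no filter on low values (0.0953) and with edgeR's quasi-likelihood test (0.0575). Apart from single libraries left out, 4 of the 7 alternatives that tested Hcst kept the call.

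Syk, the kinase that reads the phosphorylated adaptor, went the other way. It stood at 466, 517 and 533 in WT C3aR+ and at 340, 299.6 and 309 in APP-KI C3aR+, so that all 3 APP-KI libraries were below all 3 WT libraries (log2 fold change -0.68 ± 0.11, limma adjusted p = 0.0024). Vav1, the exchange factor, lay between 703 and 778 in WT C3aR+ and between 555 and 581 in APP-KI C3aR+ (-0.37 ± 0.11, limma adjusted p = 0.037). Its call was lost with median ratio scaling (-0.22, adjusted p = 0.222), with edgeR (adjusted p = 0.139) and DESeq2 (0.117), and without any 1 of the same 5 libraries as for Hcst (limma adjusted p between 0.063 and 0.139).

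The remaining members differed by less than the test required. Inpp5d, the brake of the chain, was at 1740 to 1773 in WT C3aR+ and 1217 to 1422 in APP-KI C3aR+, with a log2 fold change of -0.41 and an adjusted p of 0.05 just outside the threshold. Without APP-KI C3aR+ replicate 3 it passed (-0.46, limma adjusted p = 0.025). Plcg2, the phospholipase, was at 533 to 623 and 427 to 470 (-0.32, adjusted p = 0.068). Neither gene's values overlapped between the genotypes. Btk, the Tec kinase (103 to 117 against 89.8 to 106, -0.23), and Blnk, the scaffold (mean 258 ± 13.1 against 300.2 ± 91.3, SD, n = 3 each, 0.18), overlapped, and Blnk owed its positive sign to APP-KI C3aR+ replicate 3, without which it was -0.06.

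Among the 12307 genes tested, 13% were called higher and 9.72% lower, and 43.5% had groups that did not overlap. Against this, 3 of the 9 members were called higher, 2 lower and 7 did not overlap. The median log2 fold change over all genes was -0.17, and it moved by 0.14 with median ratio scaling, which also changed the share of higher calls from 57.3% to 75.3%. Relative to the median of all genes, Tyrobp was at 2.12, Trem2 at 1.37 and Syk at -0.51, whereas Vav1 was at -0.20 and Plcg2 at -0.16. No alternative scaling turned the sign of a member in this comparison.

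**Figure D1:**
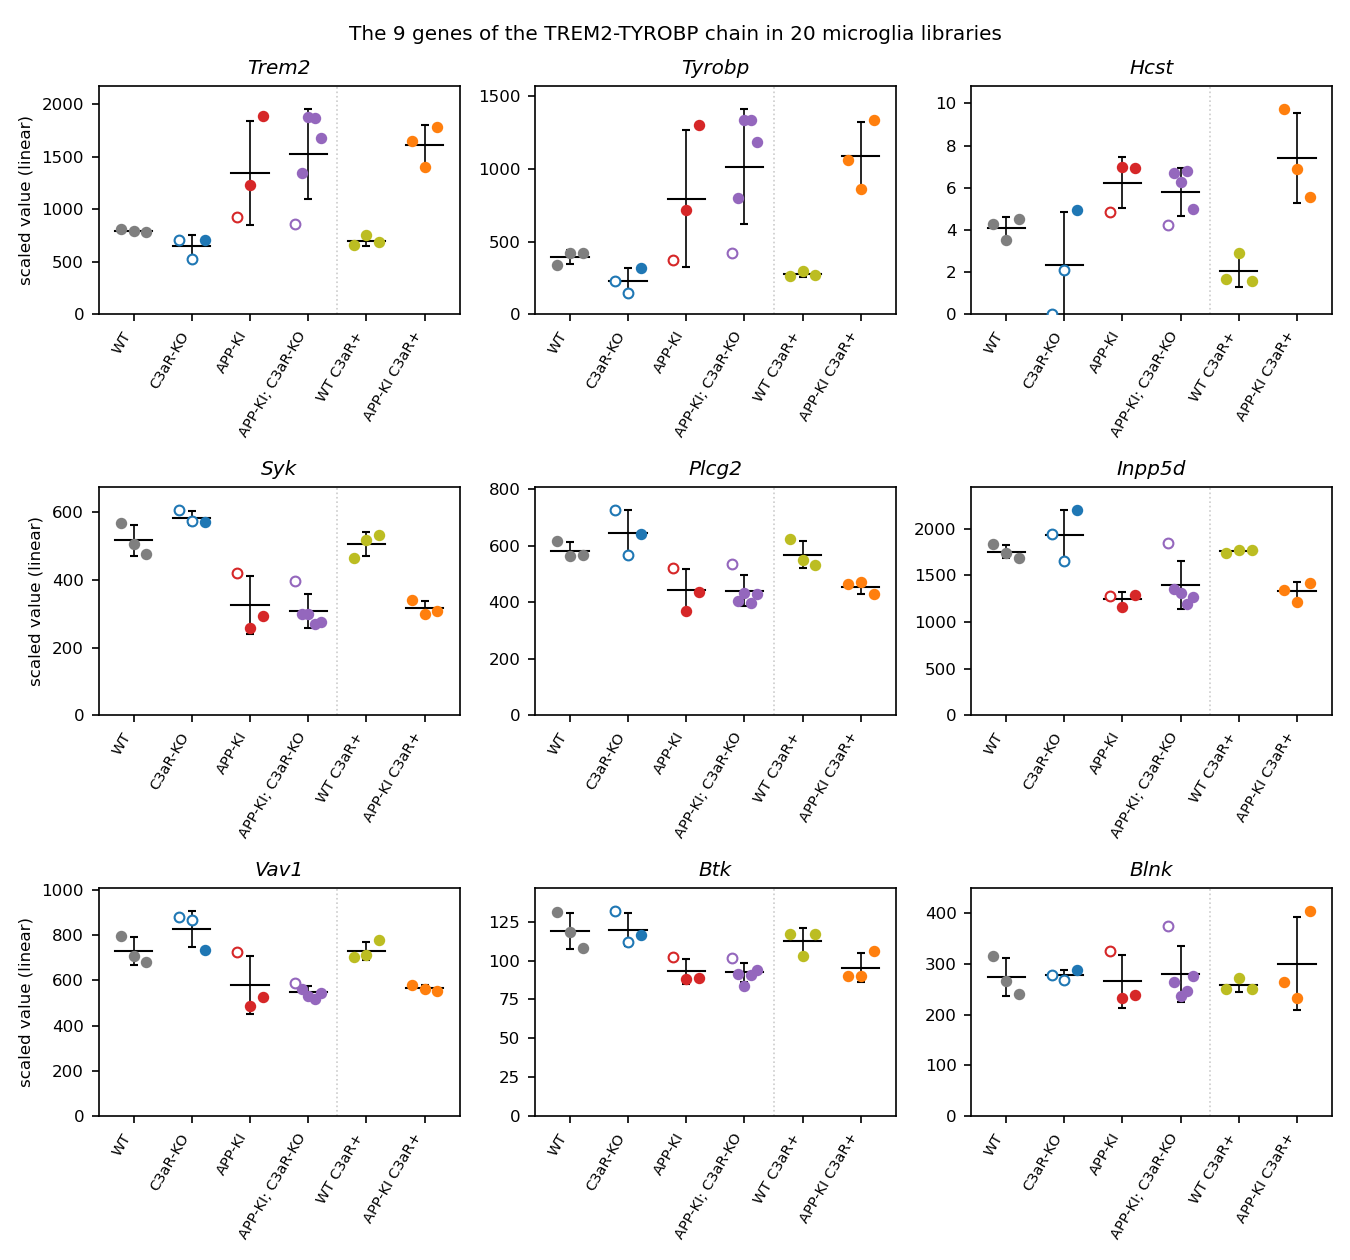
Scaled value (linear axis from 0) of each of the 9 genes in every library, by condition, with a bar at the mean and error bars of 1 SD. Open circles are the 4 libraries with more than 35% of the genes at 0, and the dotted line separates the libraries sorted on the reporter. Trem2 lies at 857 to 1888 in all 11 libraries with the APP-KI alleles and at 522 to 810 in the 9 without, and Syk at 259 to 421 and 466 to 607.

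In microglia not selected on C3aR, the same genotypes were compared in mice of the other cross. Tyrobp rose and Syk fell, and no other member passed the test in the fit of all 14 libraries. Tyrobp lay at 337, 419 and 421 in the WT libraries and at 370.4, 716 and 1300 in APP-KI, a spread of over 3 times within APP-KI that carried replicate 4 into the WT range (log2 fold change 1.16 ± 0.30, limma adjusted p = 0.043). Trem2 was at 810, 793 and 783 in WT and at 923, 1228 and 1888 in APP-KI. These groups did not overlap, but the change of 0.86 ± 0.24 missed the threshold (limma adjusted p = 0.066). Syk lay at 567, 506 and 477 in WT and at 421, 259 and 293 in APP-KI, with no overlap (-0.76 ± 0.18, limma adjusted p = 0.023).

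Downstream of Syk the values were all lower in APP-KI without passing the test. Plcg2 lay at 565 to 617 in WT and 370 to 521 in APP-KI, Inpp5d at 1690 to 1834 and 1164 to 1292, and Btk at 108 to 131 and 88.3 to 102, each without overlap (log2 fold changes of -0.44, -0.52 and -0.39). Vav1 (681 to 798 against 486 to 725, -0.41) and Blnk (240.3 to 315 against 232 to 325, -0.12) overlapped. Hcst was at 3.54 to 4.52 and 4.86 to 6.98 (0.64, limma adjusted p = 0.8).

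Over all 12401 genes of this fit, 2.22% were called higher, 1.93% lower, and 29.3% did not overlap, where the members gave 1 higher, 1 lower and 6 without overlap. Both calls rested on few libraries. The call of Syk was lost without any 1 of WT replicates 4, 5 and 6 and APP-KI replicates 5 and 6 (limma adjusted p between 0.0624 and 0.134). That of Tyrobp was lost without any 1 of WT replicates 5 and 6, APP-KI replicates 5 and 6, C3aR-KO replicates 2 and 3 and APP-KI; C3aR-KO replicates 3, 4 and 5 (0.0536 to 0.259), and both calls were lost without the term for the library series (Tyrobp 0.84, Syk -0.70). Within series 24, which held 2 APP-KI and 1 WT library, APP-KI minus WT was 0.39 for Trem2, 0.61 for Tyrobp and -0.78 for Syk on the log2 scale. Within series 26, with 1 APP-KI and 2 WT libraries, these differences were 1.26, 1.63 and -0.74, so the difference in Syk was close in the 2 series while those in the receptor and adaptor were larger in series 26.

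Trem2 passed without APP-KI replicate 4 (limma adjusted p = 0.0462) or APP-KI; C3aR-KO replicate 1 (0.0232), and Vav1 without APP-KI replicate 4 (0.0417).

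The same comparison was made without the 4 libraries with many genes at 0. Without them, an alternative added after the data were seen, 8 of the 9 members passed the test. Trem2 (0.99, limma adjusted p = 0.00107), Tyrobp (1.40, 7.25e-05) and Hcst (0.63, 0.0175) were then higher, and Syk (-0.91, 0.000177), Plcg2 (-0.53, 0.0024), Inpp5d (-0.52, 0.00383), Vav1 (-0.54, 0.00156) and Btk (-0.43, 0.00434) lower. The number of all genes called also rose, to 1660 higher and 1849 lower of 12559. Blnk alone stayed outside (-0.23, limma adjusted p = 0.135). Leaving out APP-KI replicate 5 as well, which leaves 1 APP-KI library whose spread is assumed to be that of the other groups, kept 7 of the calls and lost that of Hcst (limma adjusted p = 0.0626).

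In mice without C3ar1, the effect of APP-KI was compared between 5 APP-KI; C3aR-KO and 3 C3aR-KO libraries. Trem2 and Tyrobp rose by 2.36 and 4.38 times in the mean scaled value, and Syk, Plcg2 and Vav1 fell. Trem2 was at 707, 522 and 708 in C3aR-KO and at 857, 1348, 1873, 1870 and 1677 in APP-KI; C3aR-KO (log2 fold change 1.07 ± 0.21, n = 5 and 3, limma adjusted p = 0.0068). Tyrobp was at 231, 144 and 320 in C3aR-KO and at 421, 801, 1333, 1338 and 1181 in APP-KI; C3aR-KO (1.83 ± 0.27, limma adjusted p = 0.00056). For both genes, replicate 1 of APP-KI; C3aR-KO was the lowest of its 5 libraries and yet above all 3 C3aR-KO libraries.

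Syk stood at 607, 573 and 571 in C3aR-KO and at 396, 298, 299.2, 271 and 276 in APP-KI; C3aR-KO, a gap with no overlap (-0.88 ± 0.16, limma adjusted p = 0.0028). Plcg2 (566 to 727 against 399 to 536, -0.53, limma adjusted p = 0.047) and Vav1 (736 to 880 against 519.9 to 589, -0.54, limma adjusted p = 0.027) were also lower without overlap. Their calls were weak: Plcg2 lost its call in edgeR (adjusted p = 0.0793) and with median ratio scaling (0.068), and both genes in limma without a mean-variance trend (0.101 and 0.0615). Plcg2 also lost it without any 1 of WT replicates 4, 5 and 6, APP-KI replicate 6, C3aR-KO replicates 1 and 3 and APP-KI; C3aR-KO replicates 2 to 5 (limma adjusted p between 0.0671 and 0.146), and Vav1 without any 1 of WT replicate 5, the 3 C3aR-KO replicates and APP-KI; C3aR-KO replicates 2, 3 and 4 (0.0521 to 0.0694). The call of Trem2 was lost without C3aR-KO replicate 3 (0.93, limma adjusted p = 0.0605). Btk (112 to 132 against 83.8 to 102, -0.34) did not overlap either but was not called, and Inpp5d (1653 to 2195 against 1188 to 1841, -0.46), Hcst (0 to 4.94 against 4.22 to 6.80, 1.23) and Blnk (267 to 288 against 236 to 374, 0.04) overlapped. C3aR-KO replicate 1 held 0 reads of Hcst, where 3 reads would be worth 0.0441 in that library, and the change in Hcst was 0.62 without it and 1.87 (limma adjusted p = 0.0494) without C3aR-KO replicate 3.

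In this comparison 3.96% of all 12401 genes were called higher, 2.98% lower and 13.7% did not overlap, and the members gave 2 higher, 3 lower and 6 without overlap. Within series 24, with 2 libraries of each genotype, APP-KI; C3aR-KO minus C3aR-KO was 0.82 for Trem2, 1.66 for Tyrobp and -0.78 for Syk. Within series 26, with 3 and 1 libraries, it was 1.35, 2.00 and -1.02. All 3 genes thus kept their direction within each series. Without the 4 libraries with many genes at 0, Trem2 was at 1.32, Tyrobp at 1.98 and Syk at -1.01, against the single C3aR-KO library left and with 1655 of 12559 genes called higher and 2281 lower. In that setting Inpp5d (-0.79, limma adjusted p = 0.00134) and Btk (-0.39, 0.0184) were called lower besides Syk, Plcg2 and Vav1, read against that larger share of calls. Without APP-KI; C3aR-KO replicate 1 alone, Inpp5d was at -0.60 (limma adjusted p = 0.0156).

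Counted over the 14 libraries, 8 with the APP-KI alleles and 6 without, Trem2, Syk, Plcg2 and Btk did not overlap between the 2 kinds of library, whichever C3ar1 genotype they had. Among all genes of the fit, 6.26% were separated in this way. Trem2 ran from 857 to 1888 with the alleles and from 522 to 810 without. Syk ran from 259 to 421 and from 477 to 607, Plcg2 from 370 to 536 and from 565 to 727, and Btk from 83.8 to 102 and from 108 to 132. Trem2 and Syk remained separated over all 20 libraries, for which the share of all genes separated was not counted.

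**Figure D2:**
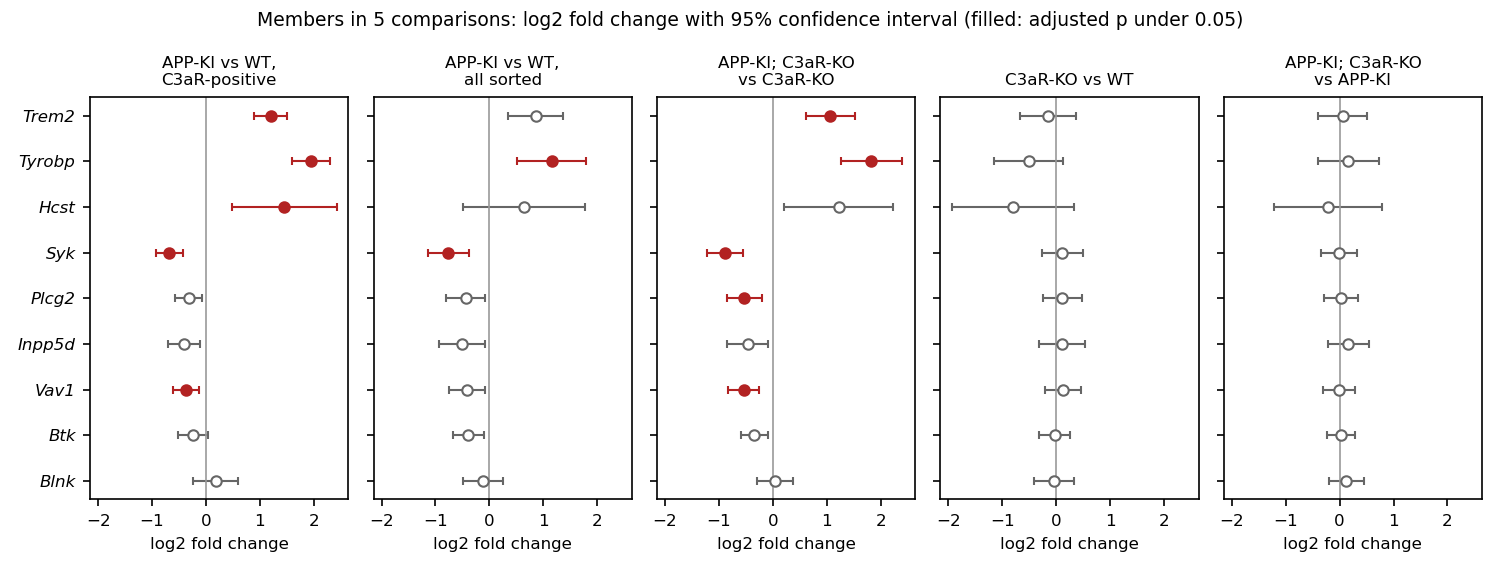
Log2 fold change of each member on the log2(scaled value + 1) scale in 5 comparisons, with 95% confidence intervals from limma and filled points where the adjusted p was under 0.05. Trem2, Tyrobp and Hcst lie to the right of 0 and Syk, Plcg2, Inpp5d, Vav1 and Btk to the left in the 3 comparisons of APP-KI with its control, and no member is filled in the 2 comparisons of the C3ar1 deletion.

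Whether deletion of C3ar1 changed the chain was asked with and without the APP-KI alleles. No member was called in C3aR-KO compared with WT: limma gave 0 calls and 0 members at an unadjusted p under 0.05, and edgeR and DESeq2 gave 0 calls as well. Over all genes only C3ar1 itself passed in limma (log2 fold change -2.39, adjusted p = 0.00339), that is 0.00806% of the genes tested, and DESeq2 called 1 gene higher and 8 lower. The members' log2 fold changes ran from -0.80 (Hcst) to 0.12 (Vav1). Tyrobp was at 231, 144 and 320 in C3aR-KO against 337, 419 and 421 in WT, lower in all 3 libraries, with a change of -0.51 whose 95% interval of -1.15 to 0.13 includes 0. That change was -0.19 without WT replicate 4, -0.098 with the replicate number as a block and -0.82 with no term for the library series. For Trem2 the interval was -0.67 to 0.36 and for Syk -0.26 to 0.49. Trem2, Tyrobp and Syk were the 3 members whose groups did not overlap, where 18.5% of all genes did not. Within series 24, C3aR-KO minus WT was -0.41 for Trem2, -0.88 for Tyrobp and 0.06 for Syk (2 and 1 libraries), and within series 26 it was -0.15, -0.39 and 0.22 (1 and 2 libraries). Without the libraries with many genes at 0, it was -0.27 for Trem2, -0.48 for Tyrobp and 0.17 for Syk, from 1 C3aR-KO library.

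On the APP-KI background the members of APP-KI; C3aR-KO and APP-KI microglia overlapped. No member was called by limma, edgeR or DESeq2, none reached an unadjusted p under 0.05, and no member's groups were separated, where 0.00806% of all genes were called (C3ar1, -1.95, limma adjusted p = 0.00973) and 1.61% did not overlap. The log2 fold changes ran from -0.21 (Hcst) to 0.16 (Tyrobp). For Trem2 the change was 0.06 with a 95% interval of -0.40 to 0.51, for Tyrobp 0.16 (-0.41 to 0.73) and for Syk -0.005 (-0.34 to 0.33). A missed threshold does not show that the genotypes are alike. Within series 24 (2 and 2 libraries) the difference was 0.01 for Trem2, 0.17 for Tyrobp and 0.06 for Syk, and within series 26 (3 and 1) it was -0.07, -0.02 and -0.06. Without the libraries with many genes at 0 it was 0.06, 0.09 and 0.07.

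The difference between the APP-KI effects without and with C3ar1 was tested as an interaction. No gene of the fit passed in limma (0%), where 111 genes with a positive and 92 with a negative estimate were under an unadjusted p of 0.05, and over all genes edgeR called 0 and DESeq2 1. No member was under an unadjusted p of 0.05 or called by either of the other tools. Tyrobp had the largest estimate, 0.67 with a 95% interval of -0.21 to 1.55, followed by Hcst at 0.58. For Trem2 the estimate was 0.21 (-0.50 to 0.91) and for Syk -0.12 (-0.63 to 0.40). Without the libraries with many genes at 0, the estimates were 0.57 for Tyrobp, 0.33 for Trem2 and -0.10 for Syk. The effect of APP-KI on the chain was therefore not shown to differ with the C3ar1 genotype at this number of libraries.

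The libraries sorted on the reporter were then set beside those that were not. Sort, reporter allele, cross and library series all change together between them and cannot be told apart, and the low C3ar1 level of the libraries labelled WT C3aR+ applies to these values too. In WT, no gene of 12581 passed in limma (0%), although 126 genes were higher and 426 lower at a p under 0.05 before adjustment, and edgeR called 0 and DESeq2 2 higher and 37 lower. Of the members, Hcst alone was under 0.05 before adjustment, at 1.60 to 2.92 in WT C3aR+ and 3.54 to 4.52 in WT (log2 fold change -0.76), and Tyrobp was at -0.50 (95% interval -1.21 to 0.22), Trem2 at -0.19 (-0.66 to 0.28) and Syk at -0.03 (-0.38 to 0.32). Trem2, Tyrobp and Hcst were lower in WT C3aR+ than in WT without overlap, and the share of all genes without overlap is not given here. In APP-KI again no gene passed in limma (0%), although 200 genes were higher and 457 lower at a p under 0.05 before adjustment, and edgeR called 0 and DESeq2 1 higher and 27 lower. No member was under 0.05 before adjustment, and Trem2 was at 0.32 (-0.15 to 0.78), Tyrobp at 0.61 (-0.11 to 1.32) and Syk at -0.01 (-0.36 to 0.35). The effect of APP-KI differed by 1.10 for Tyrobp between the 2 kinds of library (95% interval 0.09 to 2.12), the only member with an unadjusted p under 0.05, and by 0.50 for Trem2 (-0.16 to 1.17), but no gene passed in limma after adjustment (0%, adjusted p = 0.41 for Tyrobp). At an unadjusted p under 0.05 there were 836 positive and 644 negative estimates, and edgeR called 0 genes and DESeq2 87 positive and 33 negative. For Syk it differed by 0.02 (-0.48 to 0.52). The difference for Tyrobp was 0.65 without APP-KI replicate 4, the library of these with many genes at 0, 1.55 without APP-KI replicate 6, and 0.22 without replicates 4 and 5, which leaves 1 APP-KI library. edgeR and DESeq2 called no member in any of these 3 comparisons.

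Ordered by the mean scaled value, a gap separated the conditions with the APP-KI alleles from those without for the receptor and the kinase. A further gap lay among the conditions without them. Trem2 was highest in APP-KI C3aR+ (1612 ± 192, SD, n = 3), then APP-KI; C3aR-KO (1525 ± 430, n = 5) and APP-KI (1346 ± 493, n = 3), whose ranges overlapped from one to the next. After a gap came WT (796 ± 13.6, n = 3), which did not overlap the next condition, WT C3aR+ (699 ± 49.2, n = 3). C3aR-KO was last (646 ± 107, n = 3) and overlapped WT C3aR+. For Tyrobp the order was the same, from 1086 ± 237 to 232 ± 88.0, but APP-KI (795 ± 470) overlapped WT (392 ± 47.9). Syk was highest in C3aR-KO (583 ± 20.4), which did not overlap WT (517 ± 45.8), whereas WT overlapped WT C3aR+ (506 ± 35.2). Beyond a gap, Syk was lower in APP-KI (324 ± 85.6), APP-KI C3aR+ (316) and APP-KI; C3aR-KO (308 ± 50.8), with overlap among these 3. Blnk had no such order, with means between 258 and 300.2 in all 6 conditions.

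**Figure D3:**
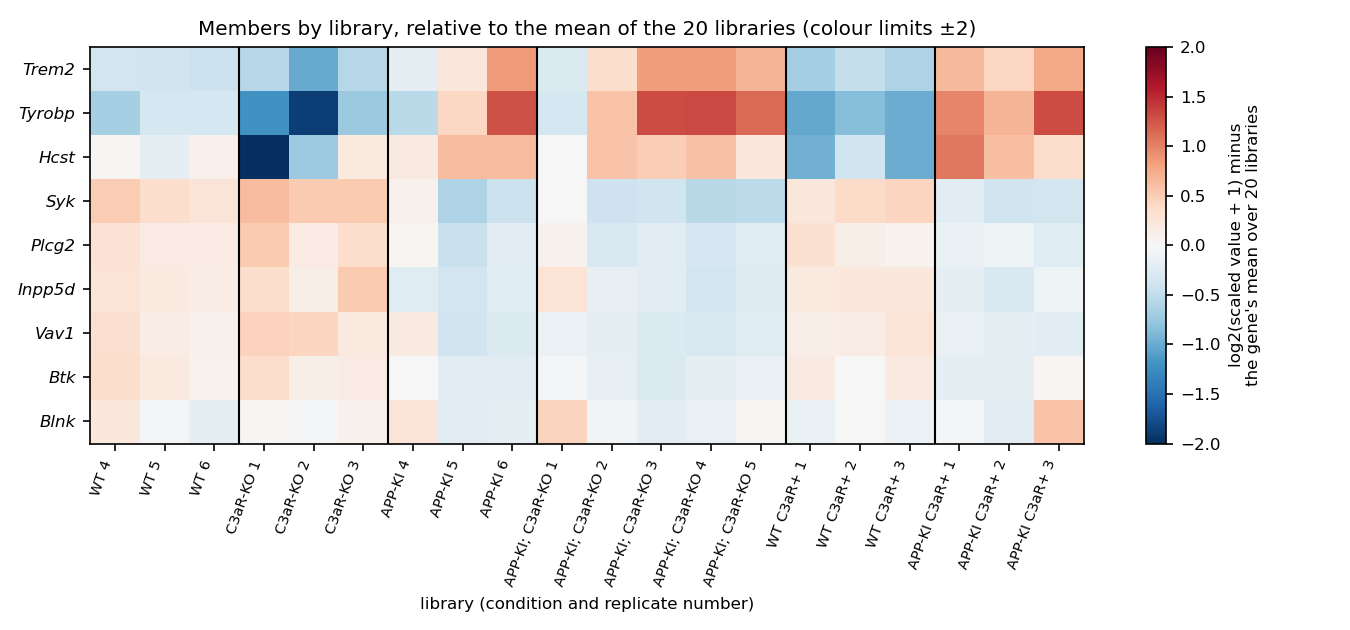
Each cell gives log2(scaled value + 1) of a member in 1 library minus the gene's mean over the 20 libraries, with colour limits of ±2 and black lines between conditions. In most libraries with the APP-KI alleles Trem2, Tyrobp and Hcst are red and Syk, Plcg2, Inpp5d, Vav1 and Btk blue, but in APP-KI replicate 4 and APP-KI; C3aR-KO replicate 1 Trem2 and Tyrobp lie below their means.

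Over the 20 libraries the members split into 2 sets that ran against each other. Pearson's r of log2(scaled value + 1) was 0.99 between Trem2 and Tyrobp, and 0.71 and 0.75 between these and Hcst. Among Syk, Plcg2, Inpp5d, Vav1 and Btk it lay between 0.78 and 0.96, the highest for Syk with Vav1. Between the receptor or Tyrobp and these 5 genes it lay between -0.91 and -0.76, and Blnk went with neither (-0.10 to 0.34). The libraries share genotype, series and composition, so these values describe the set of libraries and carry no test. Of the 8843 genes whose mean scaled value reached 10, those most like Trem2 were Tyrobp (r = 0.99), Cd63 (0.99), Dpp7 (0.98), Lrpap1 (0.98) and Cd9 (0.98). Those most like Tyrobp were Trem2, Cd63 (0.99), Ctsl (0.98), Ctsb (0.98) and Sri (0.98). Cd63 and Cd9 encode tetraspanins of lysosomes and the cell surface, and Ctsl and Ctsb lysosomal proteases.

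A ratio of 2 members within a library does not depend on how libraries were scaled against each other. These ratios were chosen after the values had been seen and are given as a description. There were 0.595 to 0.883 Tyrobp reads for each Syk read in the WT libraries, 0.504 to 0.572 in WT C3aR+ and 0.252 to 0.561 in C3aR-KO. With the APP-KI alleles there were 2.87 to 4.32 in APP-KI C3aR+, 0.879 to 4.44 in APP-KI and 1.06 to 4.95 in APP-KI; C3aR-KO. The lowest values of the last 2 came from their libraries with many genes at 0, and APP-KI replicate 4 (0.879) lay just below the highest WT library (0.883). Trem2 reads for each Syk read ran from 0.912 to 1.64 in the 9 libraries without and from 2.16 to 6.91 in the 11 with the APP-KI alleles, with no overlap. Plcg2 reads for each Vav1 read had mean ratios of 0.769 to 0.802 in all 6 conditions.

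**Figure D4:**
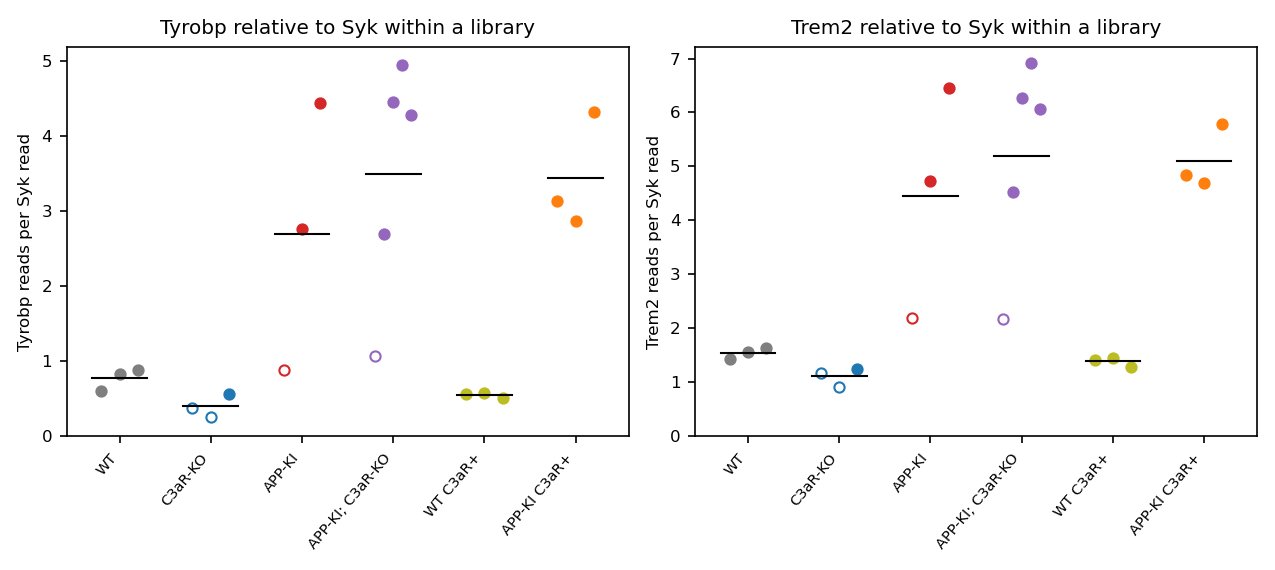
Reads of Tyrobp (left) and Trem2 (right) for each Syk read in every library, on linear axes from 0, with a bar at the mean of the condition. Open circles are the libraries with more than 35% of the genes at 0, and the Trem2 ratio is 0.912 to 1.64 without and 2.16 to 6.91 with the APP-KI alleles.

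Levels of different genes were compared per kilobase of exon. Over all annotated exons (667 bases for Tyrobp, 4946 for Trem2 and 9362 for Syk), Tyrobp led the chain in every condition, with 588 ± 71.8 scaled units per kilobase in WT and 1628 ± 356 in APP-KI C3aR+, and Hcst was last, at 5.70 and 10.2. Trem2 took rank 4 in WT (161 ± 2.76) and rank 2 in APP-KI C3aR+ (326 ± 38.9), behind Inpp5d (231) and Vav1 (198) in the first and ahead of both in the second. With the length of the principal transcript instead, 1088 bases for Trem2 and 564 for Tyrobp, Trem2 led in WT (731 against 696 for Tyrobp), a gap smaller than the SD of Tyrobp (85.0), and Tyrobp led in APP-KI C3aR+ (1925 against 1482). Syk took rank 6 or 7 of the 9 with either length, at 55.2 per kilobase of all exons in WT and 33.7 in APP-KI C3aR+. The order of the first 2 genes thus depends on the transcript taken as expressed, which counts per gene do not give.

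Around the chain, 103 other genes of its ligands, related receptors, kinases, adaptors, brakes and effectors were examined. In the libraries labelled C3aR+, 19 of the 94 tested were higher and 23 lower in APP-KI, and the remaining 52 did not pass, with a median log2 fold change of -0.19 against -0.17 for all genes. Among 6 tested ligands 3 were higher, led by Lgals3, which encodes galectin-3 (3.29 ± 0.41, limma adjusted p = 0.00058), and Apoe, the lipid carrier (2.41 ± 0.28, limma adjusted p = 0.00036). Of 10 Src, Syk and Tec family kinases, Fgr (2.15) and Fyn (1.53) were higher and 2 lower, among them Src (-0.60), so the calls among the kinases went both ways. Of 12 adaptors, 3 were higher, among them Lat2 (0.97) and Sh3bp2 (0.87), and 2 lower, Dapp1 (-0.96) and Lcp2 (-0.35).

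The brakes were divided in the same way. Of 14 inhibitory receptors and phosphatases, 3 were higher, among them Lilrb4a (2.05) and Inppl1, the paralogue of Inpp5d (0.87), and 5 lower, among them Dok3 (-1.67) and Cd33 (-0.52), a receptor for sialic acid. Of 11 tested receptors that pair with TYROBP or belong to the TREM family, 4 were higher, led by Trem1 (2.08) and Cd300lb (1.98). Siglech (-0.52) was lower. Trem1 was low without selection on C3aR and its means went the other way there. Its mean scaled value was 3.64 for WT and 1.89 for APP-KI libraries. Where C3ar1 was deleted, it was 5.00 without the APP-KI alleles and 1.82 with them. Cd300lb means there lay between 5.59 and 6.08. In the libraries labelled C3aR+, of 9 genes of shedding and trafficking, Ncstn, a subunit of γ-secretase, was higher (0.74). Ms4a6d (-0.87) and Adam10, the protease that sheds TREM2 (-0.39), were lower. Of 32 downstream enzymes and factors, 3 were higher, among them Mapk3 (0.99) and Ctnnb1, which encodes β-catenin (0.98), and 11 lower, led by Prkca (-1.38) and Plcg1, the paralogue of Plcg2 (-0.80).

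In microglia not selected on C3aR, where 2.22% of all genes were called higher in APP-KI and 1.93% lower, 5 of 96 surrounding genes tested were higher in APP-KI than in WT (Apoe, Fgr, Fyn, Lat2 and Sh3bp2, 0.60 to 2.19) and 16 lower, with Prkca (-1.43), Dok3 (-1.57), Dapp1 (-1.06), Src (-0.84), Cd33 (-0.84), Adam10 (-0.70) and Siglech (-0.70) among them. In APP-KI; C3aR-KO compared with C3aR-KO, with 3.96% and 2.98% of all genes called, 8 were higher, led by Lgals3 (2.62), Apoe (2.27) and Fgr (2.17), and 14 lower, led by Dok3 (-2.06), Apob (-1.94) and Prkca (-1.50). In C3aR-KO compared with WT 0 of the 96 passed in limma, where 2 were under an unadjusted p of 0.05.

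States of disease-associated microglia were read from 2 lists, one of a state that arises without TREM2 and one of a state that needs it. In the libraries labelled C3aR+, all 5 genes of the first list were higher in APP-KI, among them Ctsd (1.93) and Lyz2 (1.84), and all 9 tested genes of the second, led by Cst7 (7.07 ± 0.41) and Lpl (5.05 ± 0.21). In APP-KI compared with WT microglia not selected on C3aR, 0 of the 5 (2 at an unadjusted p under 0.05) and 6 of the 9 passed in limma (Cst7 7.18, Lpl 5.32), and without C3ar1 2 of the 5 and 8 of the 9 did (Cst7 7.81, Lpl 5.54). The second list summed to 1565 to 1741 in WT C3aR+ and 8385 to 14849 in APP-KI C3aR+, with no overlap, and Cst7 is a gene with little signal in WT, so its fold change depends on the pseudocount.

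**Figure D5:**
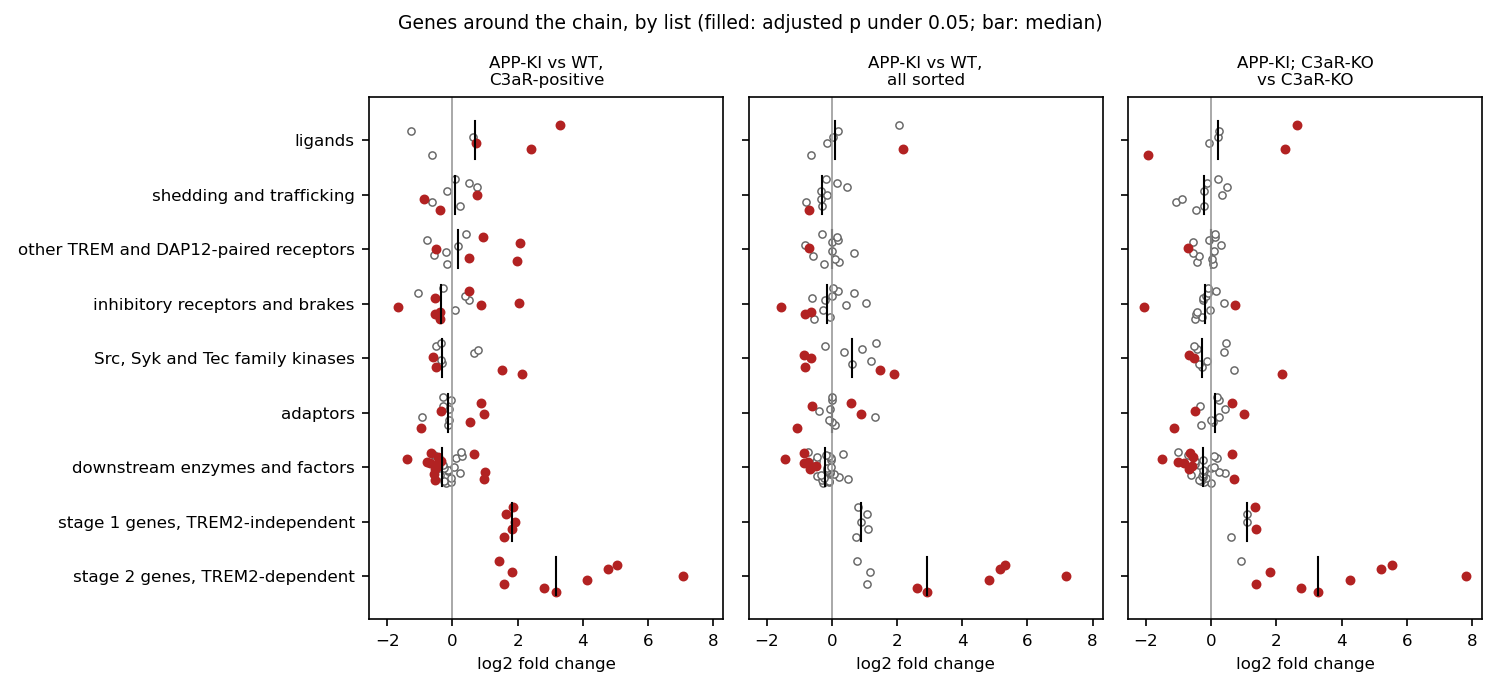
Log2 fold change of every tested gene of the lists around the chain and of the 2 state lists, in 3 comparisons of APP-KI with its control, with filled points where the limma adjusted p was under 0.05 and a bar at the median of each list. In the libraries labelled C3aR+ the filled points of the kinases, adaptors and brakes lie on both sides of 0, and in all 3 comparisons the points of the 2 state lists lie to the right of it.

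Markers of other cells moved with APP-KI beside these results. In the libraries labelled C3aR+, 5 of 6 markers of border macrophages were lower, with sums of 471 to 692 in WT C3aR+ and 178 to 394 in APP-KI C3aR+, and 5 of 10 microglial markers were lower (24530 to 26936 against 17862 to 21074). Endothelial markers summed to 45.2 to 85.3 and 169 to 325, with 1 of 4 tested genes higher and 1 lower, and oligodendrocyte markers to 85.2 to 114 and 154 to 167, with 1 of 4 higher. Markers of monocytes and neutrophils overlapped (40.6 to 444 against 48.6 to 202) and the B cell gene Pax5 and the lymphocyte genes Cd3g, Ncr1, Gzma and Gzmb were at 0 in all WT C3aR+ libraries. Without selection on C3aR, border macrophage markers summed to 438 to 1180 in WT and 256 to 276 in APP-KI, and endothelial markers to 47.2 to 57.9 and 199.3 to 255, with 2 of 6 lower and 1 of 4 higher. The endothelial sum followed Flt1, whose mean scaled value was 10.9 in WT and 193 in APP-KI. Cldn5 was at 0.658 and 4.86, whereas Pecam1 (34.2 and 12.6) and Cdh5 (8.07 and 7.44) had lower means in APP-KI. Microglial markers there summed to 29086 to 31181 and 11555 to 23609, with 2 of 10 lower. In the mice without C3ar1, border macrophage markers summed to 355 to 589 in C3aR-KO and 189.6 to 347 in APP-KI; C3aR-KO, with 2 of 6 lower, and endothelial markers to 40.9 to 62.7 and 78.5 to 260.5, with 1 of 4 higher. Flt1 had means of 10.1 in C3aR-KO and 181 in APP-KI; C3aR-KO, and Cldn5 of 0.239 and 0.990. Pecam1 (32.4 and 8.77) and Cdh5 (10.4 and 3.45) again had lower means with the APP-KI alleles. Microglial markers were at 17556 to 29624 and 9928 to 25877, with 1 of 10 lower. Genes raised by warm dissociation summed to 3298 to 4609 in WT C3aR+ and 2619 to 3211 in APP-KI C3aR+, with 1 of 10 higher and 3 lower. In the other libraries they were highest in 2 of those with many genes at 0, APP-KI replicate 4 (6348, the other APP-KI libraries 2354 and 2426) and APP-KI; C3aR-KO replicate 1 (5521, the others 1839 to 3506), against 2470 to 4033 in WT and 3002 to 3338 in C3aR-KO. The part of these markers in the results was not tested.

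For single genes, exact permutation tests of the scaled values, two-sided, could not go below p = 0.1 with 3 against 3 libraries. In APP-KI C3aR+ against WT C3aR+ the 7 members without overlap reached it. With 5 APP-KI; C3aR-KO against 3 C3aR-KO libraries, Trem2, Tyrobp, Syk, Plcg2, Vav1 and Btk each gave an exact permutation p of 0.0357. These are the members whose groups did not overlap. The test doubles the smaller tail, so any gene without overlap gives this same value, which adds nothing to the absence of overlap. Over the 45 such tests of the 9 members in 5 comparisons, the smallest Benjamini-Hochberg adjusted value of the exact permutation p was 0.188. Apart from Hcst, every member had at least 1354 reads in every library.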

How the data were processed

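RNA of 20 libraries of sorted mouse microglia was prepared with the SMARTer Total RNA Pico v3 kit, which carries molecular identifiers, and sequenced. The submitters' processing notes name cutadapt, TopHat2, featureCounts, DESeq2 and mm10. Whether counting used strand or identifiers is not given in the sources used here. The deposited signal, named FPKM by the authors, is a gene's read count over the upper quartile (percentile 75) of all counts in that library, with no division by length. Multiplied back, 100% of values in each library were whole within 0.1 read, which gave the recovered counts (13939559 to 76608464 reads per library). The test planned for FPKM values was kept for this signal. Values were multiplied by 35.1, 10 symbols listed more than once were summed, and log2(scaled value + 1) was tested with limma 3.58.1 (trend, R 4.3.3) for genes with a mean of at least 1, with Benjamini-Hochberg adjustment and a threshold of 0.05. One fit held the 6 C3aR+ libraries, one the 14 others with library series (24 or 26, from the labels) as a term, and one 12 libraries for the sort. edgeR 4.0.16 (quasi-likelihood, TMM) and DESeq2 1.42.0 on recovered counts, other pseudocounts, filters, scalings and terms, the replicate number as a block and each library left out were alternatives. The 2 alternatives without libraries with unusual shares of genes at 0 were chosen after seeing the data. Samples were grouped by their labels. Replicates of a group differed by more than counting noise (chi-square per degree of freedom 20.8 to 918), so none was merged. The 3-read floor covers counting error only, whereas the limma confidence intervals come from the spread between libraries. The fitting code was tested on simulated data. Same-numbered libraries of a pair of groups correlated between -0.010 and 0.25 in their deviations, not all above 0.1, so the numbers were not treated as pairs. Clec7a was not analysed here, and some genes of the lists are not reported here.

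The members and lists were chosen with earlier results of these data known. The text names all 9 members, C3ar1, up to 2 genes with the largest rise and 2 with the largest fall per list and comparison among those past the threshold, and the 5 genes most like Trem2 and Tyrobp.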

Additional observations from a re-analysis of the deposited data

Results flagged for a closer look

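In the 5 APP-KI; C3aR-KO libraries, 1 library stood apart from the other 4 in 4 members of the chain. Replicate 1 was highest for Syk (396, the others 271 to 299.2), Plcg2 (536, the others 399 to 434), Inpp5d (1841, the others 1188 to 1356) and Blnk (374, the others 236 to 276). Its gap to the next library took 0.772, 0.746, 0.743 and 0.711 of the group's range, above the critical value of Dixon's test for 5 samples (0.71). Chance flags about 1 in 20 groups, and the 9 members were all examined in this group. No other group had enough libraries for the test as it was run, so none of them could be flagged. The 4 flags fall on the same library and are not independent of each other. The same library had 41.9% of the genes at 0, the largest share of the 20. Its microglial markers summed to 9928 (the others of its group 22277 to 25877), its genes raised by warm dissociation to 5521 (1839 to 3506) and its T and NK cell markers to 79.2 (3.75 to 48.0). The part of these in its values was not tested. Without it the log2 fold change of Syk in APP-KI; C3aR-KO compared with C3aR-KO was -0.97 in place of -0.88, and that of Inpp5d -0.60 in place of -0.46.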

How the results depend on the processing

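Trem2, Tyrobp and Syk kept their direction and their call in the C3aR+ libraries under every alternative run. The number of members called lower there fell from 2 to 1 with no filter, median ratio scaling, edgeR, DESeq2, limma without trend and the replicate block, and was 1 to 3 with 1 library left out. In APP-KI compared with WT without selection, members called higher were 0 with a pseudocount of 0.1, no filter, limma without trend, the replicate block, no series term and only the 2 groups, 2 with DESeq2 and 0 to 2 with 1 library left out. Members called lower were 0 with limma without trend, the replicate block, no series term and only the 2 groups, and 0 to 2 with 1 library left out. In APP-KI; C3aR-KO compared with C3aR-KO, members called lower were 1 with limma without trend and with only the 2 groups, 0 with the replicate block and 1 to 4 with 1 library left out, and 1 was called higher with the block. Without the libraries with many genes at 0 these counts were 3 higher and 5 lower in the former and 5 lower in the latter, which then had 1 C3aR-KO library, and without those with many or few 2 higher and 5 lower, and 5 lower. The cause of these changes was not tested.

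Signs turned in values that were not called. In C3aR-KO compared with WT, the replicate block gave 0.14 for Trem2 and -0.22 for Syk. For deletion of C3ar1 on the APP-KI background, only the 2 groups gave -0.020 for Trem2 and 0.0084 for Syk, leaving out the libraries with many genes at 0 gave 0.067 for Syk, and leaving out those with many or few gave -0.12 for Trem2 and -0.062 for Tyrobp. Blnk in APP-KI; C3aR-KO compared with C3aR-KO was -0.012 with no series term, -0.20 without the libraries with many and -0.22 without those with many or few genes at 0. Between sorted and unselected APP-KI libraries, Syk was 0.071 with median ratio scaling, 0.037 with DESeq2, 0.19 without libraries with many and 0.11 without those with many or few genes at 0, and the last setting gave -0.23 for Trem2 and -0.28 for Tyrobp. It also gave -0.046 for Trem2 in the difference of the APP-KI effects between the sorts. With 1 library left out, Blnk ran from -0.055 to 0.34 in the C3aR+ libraries and from -0.071 to 0.18 in APP-KI; C3aR-KO compared with C3aR-KO. For deletion of C3ar1 on the APP-KI background, Trem2 ran from -0.10 to 0.23, Tyrobp from -0.13 to 0.37 and Syk from -0.18 to 0.16, and Trem2 in C3aR-KO compared with WT from -0.30 to 0.12. In the interaction Trem2 ran from -0.10 to 0.43 and Syk from -0.27 to 0.029, in the difference between the sorts Syk ran from -0.125 to 0.22, and between sorts Syk ran from -0.15 to 0.19 in APP-KI and from -0.085 to 0.039 in WT. For the other 6 members in the 6 comparisons with no call, 80 of 840 values changed sign and 0 passed the threshold.

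Counts over all genes moved too. In the C3aR+ libraries 1602 higher and 1196 lower became 1844 and 605 with median ratio scaling, 1770 and 659 with edgeR, and 1169 to 1253 and 608 to 648 without any 1 of the 3 WT C3aR+ libraries. In APP-KI compared with WT, 275 and 239 became 92 and 19 with the replicate block, 231 and 117 with limma without trend, 246 and 116 with only the 2 groups, 213 and 155 with no filter, 1660 and 1849 without the libraries with many genes at 0, and 956 and 948 without those with many or few. With 1 library left out they were lowest without WT replicate 4 (152 and 66), and over 1.5 times off in a direction also without WT replicate 5 (181 and 100) or 6 (193 and 124), APP-KI replicate 6 (172 and 100) and APP-KI; C3aR-KO replicate 1 (415 and 422). In APP-KI; C3aR-KO compared with C3aR-KO, 491 and 369 became 187 and 56 with the block, 275 and 168 with only the 2 groups, 1655 and 2281 and then 1731 and 2427 without the same libraries, both with 1 C3aR-KO library, 759 and 639 without APP-KI; C3aR-KO replicate 1, and 476 and 243, 373 and 245, and 371 and 243 without C3aR-KO replicate 3 and APP-KI; C3aR-KO replicates 3 and 4. In C3aR-KO compared with WT, 0 and 1 became 1 and 20 without C3aR-KO replicate 3. Tyrobp in C3aR-KO compared with WT ran from -0.69 to -0.19 with 1 library left out, and its difference of APP-KI effects between the sorts from 0.65 to 1.55. Same-numbered libraries share only a number here, and the block could not be fitted for the comparisons between sorts within a genotype. Depth limited Hcst, with 0 to 477 reads per library.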
